A study of Mus musculus with 9 samples.

Results

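The collagen genes of the mouse were followed across prostates of 3 Srd5a2 genotypes. They were taken as every protein-coding gene in the deposited count table whose symbol is Col, a number, the letter a and a number, which gave 44 of the 54532 genes listed. Of these, 37 had enough reads to be tested, among 16836 genes tested in all. They were divided into 11 fibrillar genes (types I, II, III, V, XI, XXIV and XXVII), the 6 chains of the basement membrane collagen type IV, 2 multiplexins, 6 chains of the beaded-filament collagen type VI, the anchoring-fibril gene Col7a1, 3 short-chain genes, 9 fibril-associated genes known as FACITs, 4 transmembrane collagens and 2 others.

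Srd5a2 encodes the type II 5-alpha-reductase, which makes dihydrotestosterone from testosterone, and the series title places it in the stroma of the enlarged prostate. Prostates of wild-type mice (WT, Srd5a2 intact), heterozygous mice (Het, Srd5a2+/-) and null mice (KO, Srd5a2-/-) were profiled by bulk RNA sequencing of polyA-enriched RNA, with 3 libraries per genotype. The labels name crosses of Het males with WT C57BL6 females, which alone yield no null mice. The age of the mice, the lobes dissected and the part of the gene removed are not stated in the labels. The labels do not say that the 3 libraries of a genotype came from separate mice, so p-values reflect no more than how these samples varied, and that variation may be technical.

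Collagens are secreted as triple helices of 3 chains, and the combination of chains sets what is built. Types I, III and V form the banded fibrils of the stroma, type IV forms the sheet under epithelium and around muscle and vessels, and type VI forms fine filaments around cells. In the prostate, fibroblasts and smooth muscle make most of the fibrillar collagen, and epithelium, muscle and endothelium contribute to the basement membrane.

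Regulatory sequence is shown for genes on which the results turn. The 250 bases before the RefSeq start (GRCm38.p6) of Col1a2, Col3a1 and Col5a1, 3 fibrillar genes whose KO libraries all lay above the Het libraries, are at chr6:4505368-4505617 (plus strand), chr1:45311288-45311537 (plus strand) and chr2:27886175-27886424 (plus strand). Capitals mark matches on either strand to short motifs of core promoters. The first is CCAAT, the site of factors such as NF-Y. The next is TATAAA, the common form of the TATA box. The last is GGGCGG, the GC box bound by Sp1, and no match shown overlaps another.
Col1a2: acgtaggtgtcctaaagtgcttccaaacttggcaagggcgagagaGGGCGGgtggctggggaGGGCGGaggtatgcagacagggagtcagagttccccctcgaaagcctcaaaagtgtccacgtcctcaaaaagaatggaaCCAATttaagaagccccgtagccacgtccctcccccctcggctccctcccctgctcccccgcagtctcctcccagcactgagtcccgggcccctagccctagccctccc
Col3a1: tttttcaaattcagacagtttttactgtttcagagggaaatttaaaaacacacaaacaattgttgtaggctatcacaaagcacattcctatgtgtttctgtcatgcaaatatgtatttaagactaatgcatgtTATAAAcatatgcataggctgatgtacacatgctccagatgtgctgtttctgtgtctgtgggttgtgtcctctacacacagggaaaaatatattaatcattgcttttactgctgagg
Col5a1: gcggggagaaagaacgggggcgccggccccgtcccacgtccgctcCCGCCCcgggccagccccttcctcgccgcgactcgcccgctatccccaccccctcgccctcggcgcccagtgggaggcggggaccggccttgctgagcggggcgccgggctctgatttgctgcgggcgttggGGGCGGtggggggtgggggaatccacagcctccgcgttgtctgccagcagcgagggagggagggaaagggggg
No motif was common to the 3 windows: Col1a2 held CCAAT and GGGCGG, Col3a1 held TATAAA, and Col5a1 held GGGCGG. Of the 35 collagen genes with a RefSeq window, CCAAT was found in 13, TATAAA in 5 and GGGCGG in 21, against 33.8%, 12.4% and 32.7% of the 32851 windows of all genes. The androgen receptor half-site AGAACA was searched on both strands too and was found in 2 of the 35, Col20a1 and Col9a1, against 16.1% of all windows. A match describes the letters only and is no evidence that a factor binds.

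Type IV genes lie in head-to-head pairs, and the pairs are shown because their chains behaved differently across the libraries. In the deposited coordinates Col4a1 and Col4a2 overlap by 22 bases at their 5′ ends, Col4a4 and Col4a3 lie 71 bases apart, and Col4a6 and Col4a5 lie 1308 bases apart. The stretch at chr8:11312801-11312830 (plus strand, RefSeq GRCm38.p6) holds the starts of Col4a1 and Col4a2, with the 22 bases from start to start in capitals. The windows of Col4a5 (chrX:141475169-141475418, plus strand) and Col4a6 (chrX:141474077-141474326, minus strand) do not overlap, and their capitals mark the same 3 motifs as above.
Col4a1 and Col4a2: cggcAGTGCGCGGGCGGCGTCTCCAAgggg
Col4a5: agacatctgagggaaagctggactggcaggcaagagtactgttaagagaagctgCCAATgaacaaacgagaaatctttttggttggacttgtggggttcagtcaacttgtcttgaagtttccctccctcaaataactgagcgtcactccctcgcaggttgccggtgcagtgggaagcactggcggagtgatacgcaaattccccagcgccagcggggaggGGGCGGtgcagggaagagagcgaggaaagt
Col4a6: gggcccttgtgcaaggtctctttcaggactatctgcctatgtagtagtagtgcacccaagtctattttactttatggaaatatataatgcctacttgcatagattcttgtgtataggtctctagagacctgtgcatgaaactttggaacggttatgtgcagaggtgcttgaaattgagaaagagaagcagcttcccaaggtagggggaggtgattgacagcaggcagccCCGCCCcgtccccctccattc
Col4a5 held CCAAT and GGGCGG, and Col4a6 held GGGCGG alone.

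The libraries held 16233392 to 24017791 counts. Reads on Srd5a2 were lowest in the libraries labelled KO, where they came to 0.512 to 1.15 CPM (read counts scaled to a common library total, with TMM factors); WT ranged from 2.30 to 8.81 and Het from 2.37 to 5.19. For Sbp, a secretory gene of the ventral prostate, WT library 1 (0.994 CPM), WT library 3 (16) and Het library 2 (7.26) were almost empty, whereas the remaining 6 held 34372 to 143989 CPM. Summed levels of 6 seminal vesicle genes ran from 6593 CPM (Het library 1) to 359147 CPM (Het library 2), so libraries of 1 genotype differed widely in secretory genes. Het libraries held counts for 16845 to 17756 genes when set to the lowest depth, fewer than the 17877 to 20394 of WT and the 20098 to 20380 of KO. No gene of the 16836 passed edgeR's quasi-likelihood test in any of the 3 comparisons at a Benjamini-Hochberg adjusted p of 0.05, so the values below are differences that did not pass unless stated otherwise.

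Collagen transcripts made up 0.108% to 0.221% of all counts. They took 0.180% to 0.208% in the KO libraries, 0.114%, 0.221% and 0.158% in WT libraries 1 to 3, and 0.108% to 0.133% in the Het libraries. These are shares of unscaled totals, which include the secretory genes that varied widely between libraries. With TMM-scaled totals, collagen genes summed to 1809 to 2036 CPM in KO, 1142 to 2074 in WT and 1093 to 1402 in Het. Ranked by FPKM (counts scaled by gene length and library size, which allows genes of unequal length to be compared), the highest were Col1a1 (mean of the 9 libraries 21.7), Col3a1 (19.9), Col6a1 (18.9), Col4a1 (16.9), Col4a6 (15.9), Col6a3 (14.8), Col1a2 (13.6), Col18a1 (12.9) and Col4a2 (11.7). Mean FPKM of Col1a1 and Col3a1 were 20.7 (SD 8.63) and 19.7 (SD 7.02) in WT, 15.7 (SD 7.69) and 13.8 (SD 4.64) in Het, and 28.7 (SD 2.96) and 26.3 (SD 1.71) in KO. Within libraries, the FPKM ratio of Col3a1 to Col1a1 ran from 0.691 to 1.11, so neither gene was the higher in all 9. Fibrillar genes accounted for 21.2% to 35.8% of the summed collagen FPKM and type IV for 20.6% to 41.6%, and the type IV maximum was WT library 1. The marker genes of a collagen-producing stroma, Col1a1, Col5a1 and Col4a1, were present in all 9 libraries, at no less than 51.9, 12.0 and 61.2 CPM.

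The KO and Het libraries stood farthest apart. In KO against Het, 31 of the 37 tested collagen genes had a positive fitted difference (52.0% of all genes did), with a median log2 fold change of 0.77 against 0.018 over all genes. For 16 of the 37, all 3 KO libraries lay above all 3 Het libraries, where 7.80% of all genes did so, and for none did all 3 lie below (4.12% of all genes). The members are not independent of each other, so such counts are not counts of separate observations. Over the 9 libraries the Pearson r of log2 CPM with Col1a1 was 0.99 for Col1a2 and 0.96 for Col6a1, but -0.00056 for Col6a3. None passed edgeR after adjustment, as for 0% of all genes, and 11 were higher at an unadjusted p under 0.05 (4.42% of all genes) and 0 lower (1.81%). Both DESeq2 (1 of 37, and 1.0% of all genes) and limma voom with library quality weights (2 of 37, and 1.89%) called collagen genes, namely Col5a1 in both and Col7a1 in the latter. The 11 became 7 without Het library 3, without KO library 1 or without KO library 2, while the share of all genes with p under 0.05 in either direction went from 6.22% to 5.72%, 3.77% and 3.44%. Without Het library 1, members lying below in all libraries went from 0 to 3 (13.6% of all genes).

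Against WT, the Het libraries were lower for most collagen genes. In Het against WT, 26 of the 37 had a negative fitted difference (50.0% of all genes did), and the median was -0.53 against a value near 0 over all genes. All 3 Het libraries lay below WT for 6 (8.59% of all genes) and above for 0 (4.70%). At an unadjusted p under 0.05 in edgeR, 4 were lower (5.61% of all genes) and 0 higher (3.43%), and 0 passed after adjustment, as for 0% of all genes. DESeq2 called 1 of the 37 (Col4a6; 1.22% of all genes) and limma voom with library quality weights called 2 (Col4a6 and Col7a1; 4.71%). This comparison turned on single libraries. The 4 became 9 without WT library 1, 8 without Het library 2, 2 without Het library 3 and 1 without WT library 2, while the share of all genes with p under 0.05 in either direction went from 9.04% to 6.65%, 11.6%, 6.85% and 8.26%. The 6 lying below became 15 without WT library 1 (12.9% of all genes), 11 without Het library 1 (18.8%) and 24 without the 3 libraries low in Sbp (33.3%). Members lying above went from 0 to 6 without Het library 1 (15.5% of all genes), and those higher at an unadjusted p under 0.05 from 0 to 2 without Het library 1 or without WT library 2. The median became -0.15 without WT library 2, -0.26 without Het library 1 and -0.31 without Het library 3.

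KO and WT libraries differed least. In KO against WT, 31 of the 37 had a positive fitted difference (50.6% of all genes), with a median of 0.39 against 0.0056 over all genes. All 3 KO libraries lay above WT for Col15a1, Col6a4, Col8a1 and Col26a1, 4 of the 37 (8.14% of all genes), and below for Col13a1 alone (6.04%). None of the 37 had an unadjusted p under 0.05 in edgeR in either direction, where 2.20% of all genes were higher and 1.37% lower, and none passed after adjustment in edgeR (0% of all genes), in DESeq2 (0.0832%) or in limma voom with library quality weights (0%). The size depended on the WT libraries, since the median became 0.13 without WT library 1 and 0.59 without WT library 2, and without WT library 2 the count at p under 0.05 became 7 (4.47% of all genes in either direction) and the count lying above became 16 (15.9% of all genes), 10 without KO library 3 (13.0%) and 8 without WT library 3 (14.5%). Without the 3 libraries low in Sbp, which leaves WT library 2 as the lone WT sample, the median was 0.021 with 21 of 41 positive, while it was -0.89 in Het against WT and 1.09 in KO against Het. The 3 comparisons share their libraries in pairs and are not independent of each other.

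**Figure D1:**
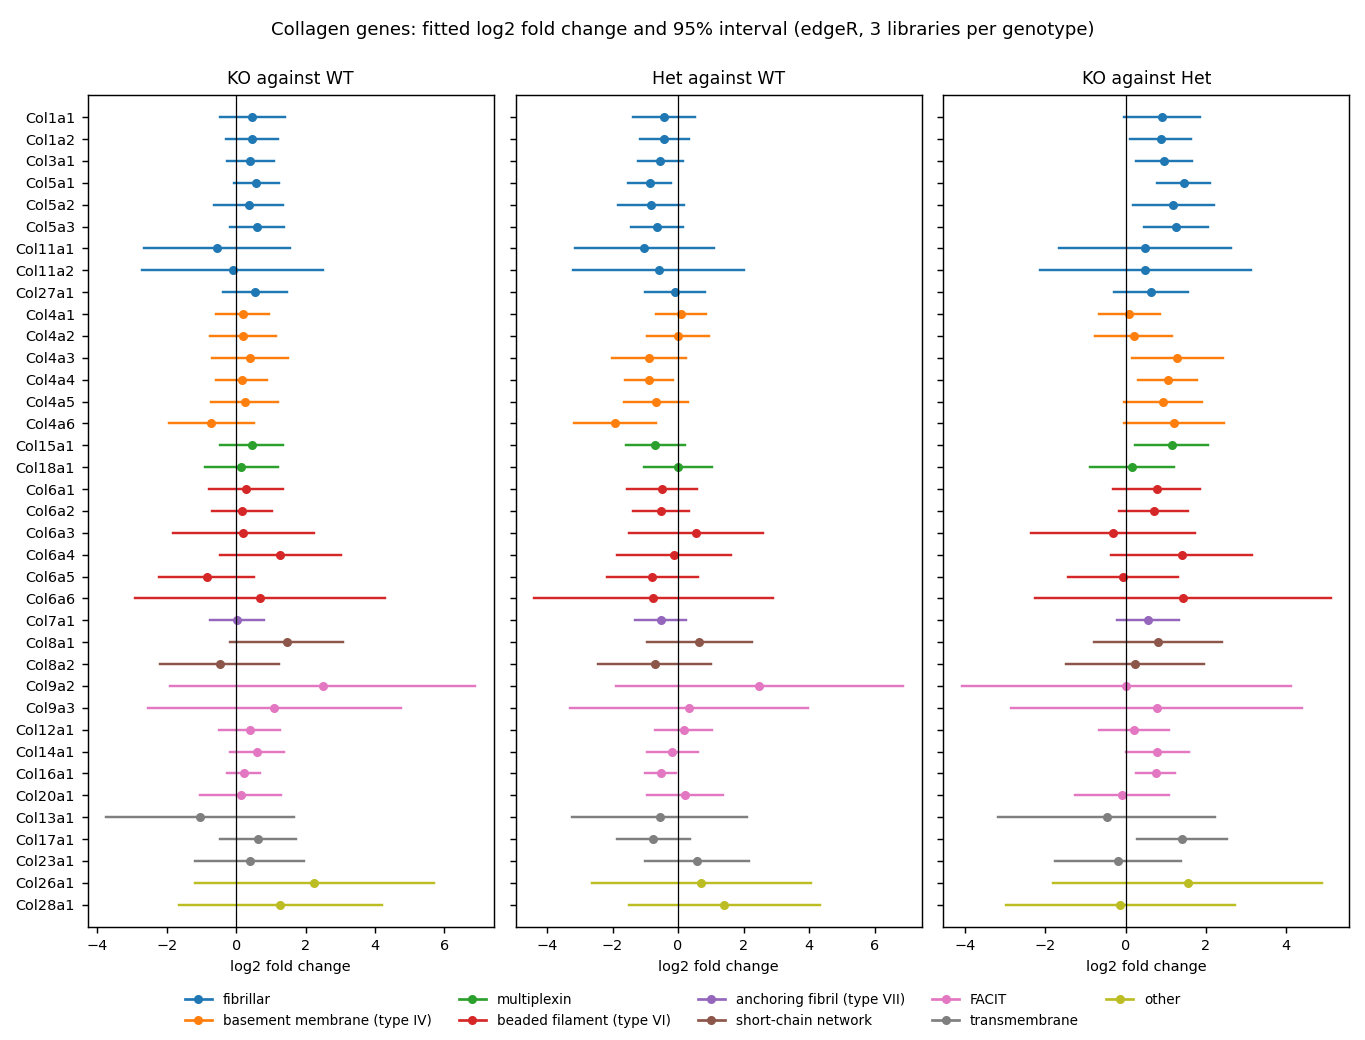
Fitted log2 fold change (points) and 95% interval (lines) of the 37 tested collagen genes, coloured by class, in the 3 comparisons. Most points lie right of 0 in KO against Het (31 of 37) and in KO against WT (31 of 37), and left of 0 in Het against WT (26 of 37), with 0 genes past the adjusted threshold in any panel.

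Among markers of other cell types, the summed levels for fibroblasts, endothelium and macrophages were below WT and KO in every Het library. Those for smooth muscle, pericytes and Schwann cells were not below in every Het library. Summed over 10 fibroblast markers (among them Pdgfra, Dpt and Cd34), the level was 581 to 678 CPM in Het, 771 to 1190 in WT and 786 to 1563 in KO, with 10 of 10 markers positive in KO against Het (52.0% of all genes), 7 of them at an unadjusted edgeR p under 0.05 (4.42% of all genes). The 8 endothelial markers (among them Pecam1 and Cdh5) summed to 29.9 to 47.2 CPM in Het, 66.9 to 108 in WT and 67.7 to 153 in KO, with 8 of 8 positive and 7 at that threshold. The 5 macrophage markers summed to 15.7 to 31.5 CPM in Het, 34.2 to 44.6 in WT and 33.7 to 40.4 in KO. In KO against Het, 4 of the 5 were positive, 1 of them at that threshold. None of the fibroblast, endothelial or macrophage markers was at 0 in all libraries of a genotype. Smooth muscle markers, 8 in all, gave no such order: Het library 1 was lowest at 1206 CPM and the other 8 libraries ran from 3214 to 7693. The 5 pericyte markers summed to 26.8 to 110 CPM in Het, 32.8 to 51.2 in WT and 61.1 to 109 in KO, with 4 of 5 positive in Het against WT (median 0.64) and 2 of 5 in KO against Het (median -0.012). The 6 Schwann cell and nerve markers summed to 63.9 to 119 CPM in Het, 72.1 to 84.5 in WT and 114 to 145 in KO, with 5 of 6 positive in Het against WT and 4 of 6 in KO against Het. The part of these markers in the collagen differences was not tested. In bulk tissue, fewer cells of a type and less RNA per cell cannot be told apart.

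**Figure D2:**
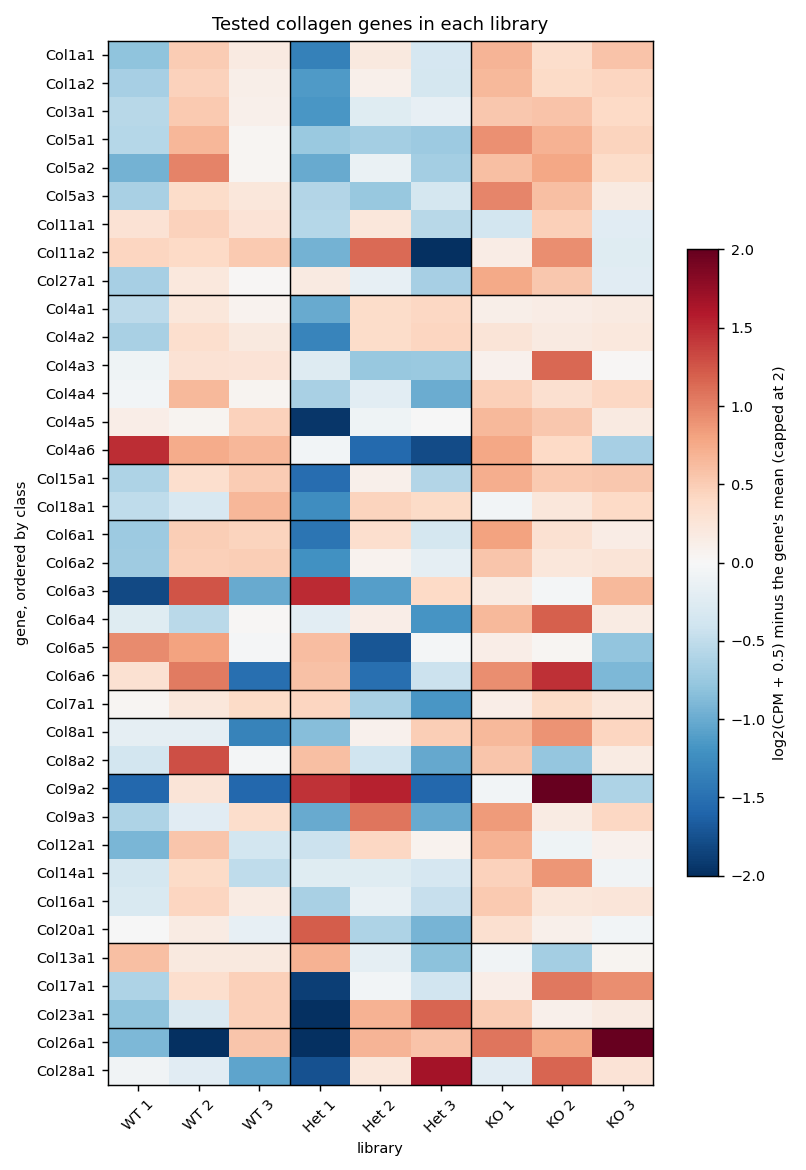
Each row is 1 of the 37 tested collagen genes, ordered by class (black lines), and each column 1 library; colour is log2(CPM + 0.5) minus the gene's mean over the 9 libraries. Het library 1 is low for most rows, the 3 KO columns are above the mean for most fibrillar rows, and Col6a3 shows its own pattern with its lowest values in WT library 1, WT library 3 and Het library 2.

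For types I, III and V the KO libraries were high, the Het libraries low and the WT libraries spread over the range of both. All 9 tested fibrillar genes had positive differences in KO against Het (52.0% of all genes did), with a median of 0.90. Of these, 5 had an unadjusted edgeR p under 0.05 (4.42% of all genes were higher at it), and 6 lay above without overlap (7.80%). All 9 had negative differences in Het against WT (median -0.59), against 50.0% of all genes. In KO against WT 7 of 9 were positive (median 0.45), against 50.6% of all genes.

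Col1a1 (ENSMUSG00000001506, chromosome 11, 94936224 to 94953042, GRCm38) encodes the main chain of type I collagen, the chief fibril of connective tissue. It stood at 76.4, 190 and 152 CPM in WT, 51.9, 153 and 106 CPM in Het and 213, 170 and 197 CPM in KO. Each KO library lay above each Het library. WT libraries 1 and 3 lay below all KO libraries, while WT library 2 lay inside the KO range. The log2 fold change was 0.90 (95% interval -0.041 to 1.84) in KO against Het, -0.43 (95% interval -1.36 to 0.50) in Het against WT and 0.47 (95% interval -0.46 to 1.40) in KO against WT.

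Col1a2 (chromosome 6, 4504814 to 4541544), whose promoter is printed above, encodes the partner chain of type I. Its values were 102, 223 and 175 CPM in WT, 73.3, 173 and 127 CPM in Het and 254, 211 and 218 CPM in KO. They ran in parallel with Col1a1: the FPKM ratio of Col1a1 to Col1a2 stayed within 1.34 to 1.71 over the 9 libraries. KO against Het was 0.87 (SE 0.34), with an edgeR adjusted p of 0.735. Het against WT was -0.42 and KO against WT 0.45.

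Col3a1 (chromosome 1, 45311538 to 45349706) encodes type III, which forms fibrils with type I in distensible tissue. It was read at 126, 267 and 201 CPM in WT, 82.6, 158 and 167 CPM in Het and 271, 276 and 246 CPM in KO, so KO and Het did not overlap, and WT library 2 lay within the KO range with the other WT libraries below it. The difference of KO from Het was 0.96 (SE 0.31) with an edgeR adjusted p of 0.660, that of Het from WT -0.54 and that of KO from WT 0.41.

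Col5a1 (ENSMUSG00000026837, chromosome 2, 27886425 to 28039514) showed the clearest separation. It encodes the chain of type V that starts fibril assembly and limits fibril width. Its level was 13.5, 32.4 and 20.8 CPM in WT, 12, 12.5 and 12.1 CPM in Het and 38.6, 33.2 and 27.8 CPM in KO. The 3 Het libraries were nearly identical and all below WT and KO, and the lowest KO library stood above all but WT library 2. KO against Het gave 1.45 (95% interval 0.79 to 2.10), with an edgeR p of 0.000648 before and 0.611 after adjustment over all genes, while DESeq2 gave an adjusted p of 0.00611 and limma voom with library quality weights 0.0458. Leaving out any 1 library kept the edgeR estimate between 1.33 and 1.55. Het against WT was -0.87 (SE 0.29) and KO against WT 0.58 (SE 0.29), with edgeR adjusted p of 0.442 and 1.

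The other type V chains followed the same order. Col5a2 was at 7.79, 31.4 and 15.9 CPM in WT, 7.46, 14.1 and 9.44 CPM in Het and 23.7, 26.9 and 20.1 CPM in KO, with KO above Het in every library and WT library 2 the highest of all. Col5a3 was at 5.28, 11.2 and 10.1 CPM in WT, 5.51, 4.87 and 6.62 CPM in Het and 17.4, 13.3 and 9.73 CPM in KO, with Het below KO in every library. KO against Het was 1.19 (SE 0.45) for Col5a2 and 1.25 (SE 0.36) for Col5a3, with edgeR adjusted p of 0.719 and 0.640. Differences from WT were -0.83 and -0.64 in Het, and 0.36 and 0.60 in KO. The Col5a2 value in KO turned to -0.0055 without WT library 1 and became 1.03 without WT library 2.

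The minor fibrillar genes were near the limit of detection or did not order by genotype. Col27a1, a fibrillar gene best known from cartilage, was at 3.82, 7.37 and 6.43 CPM in WT, 7.19, 5.61 and 3.81 CPM in Het and 11, 9.44 and 5.34 CPM in KO, with overlap between all groups and 0.63 (SE 0.41) in KO against Het. Col11a1, which encodes a chain that nucleates thin fibrils, was at 0.889, 1.07 and 0.881 CPM in WT, 0.270, 0.827 and 0.276 CPM in Het and 0.384, 1.08 and 0.471 CPM in KO. The Het libraries lay below the WT libraries throughout, with -1.03 (SE 0.95) in Het against WT, but all values lay near 1 CPM or below. Col11a2 ran from 0 (Het library 3) to 5.24 CPM (Het library 2). The WT libraries held 3.03, 2.97 and 3.27 CPM, the KO libraries 2.42, 4.49 and 1.73 CPM, and its intervals covered more than 2 log2 units on each side. KO against WT was -0.55 for Col11a1 and -0.10 for Col11a2, and KO against Het 0.48 and 0.49.

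**Figure D3:**
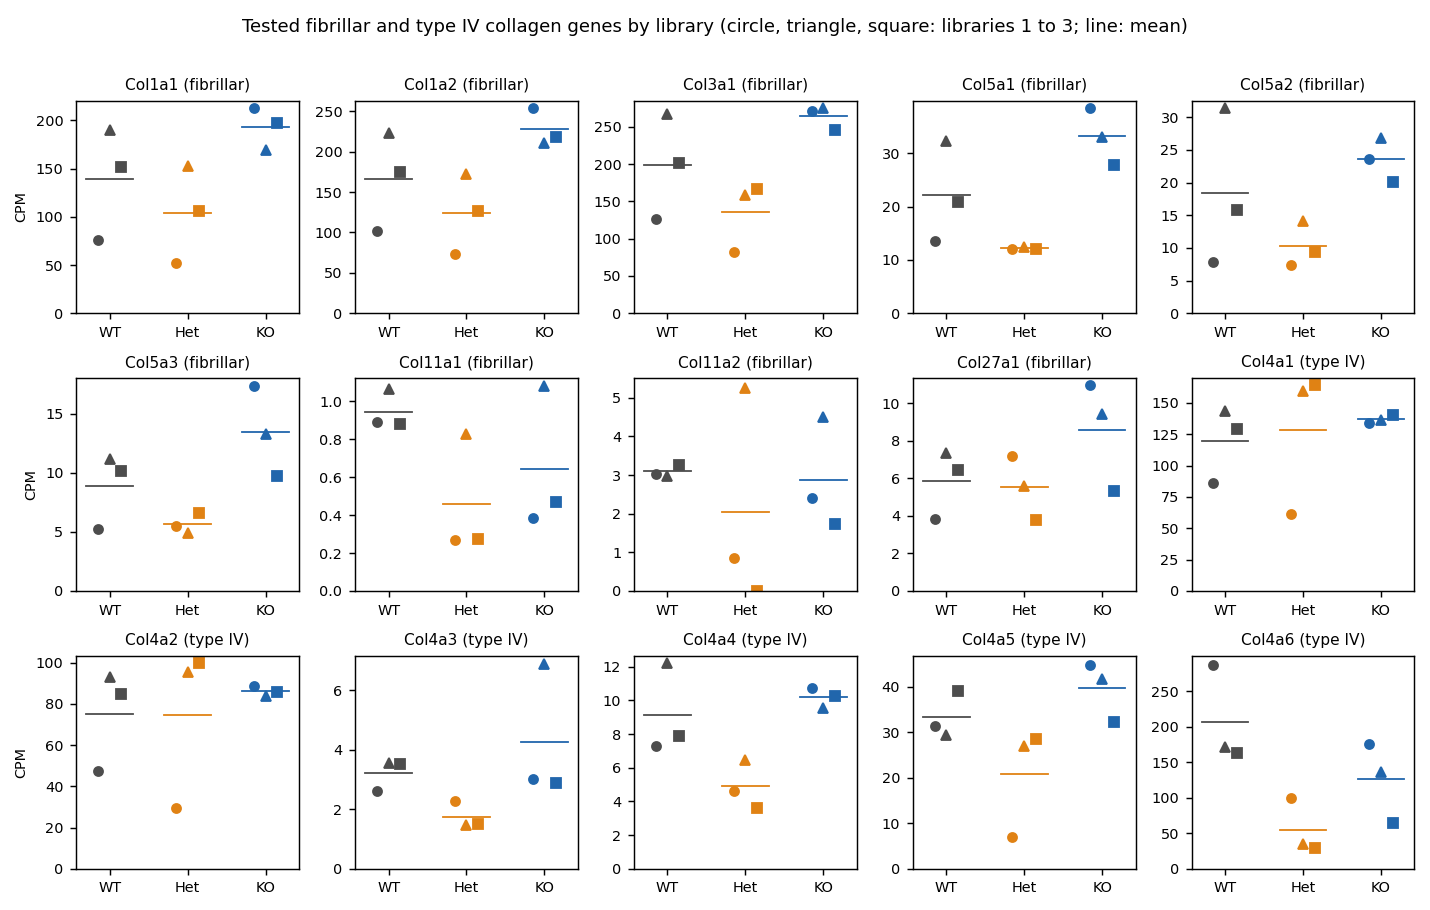
CPM in each library of the 9 tested fibrillar and 6 type IV genes (linear axes from 0), with 3 libraries per genotype as circle, triangle and square for libraries 1, 2 and 3 and the mean as a line. For Col5a1 the 3 Het points lie together near 12 CPM, below every KO point, whereas for Col4a1 the Het points span 61.2 to 164 CPM around the KO points.

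The 6 type IV chains did not share 1 pattern across the libraries. All 6 chains had positive differences in KO against Het (52.0% of all genes did), with a median of 0.99. Of these, 2 had an unadjusted edgeR p under 0.05 (4.42% of all genes were higher at it), and 3 lay above without overlap (7.80%). In Het against WT 5 of 6 were negative (median -0.78), against 50.0% of all genes, and 4 lay below without overlap (8.59% of all genes). In KO against WT 5 of 6 were positive (median 0.19), against 50.6% of all genes.

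The common pair, Col4a1 and Col4a2, which make up most basement membranes, did not order by genotype. Col4a1 (ENSMUSG00000031502, chromosome 8, 11198423 to 11312826) was at 86.1, 144 and 129 CPM in WT, 61.2, 160 and 164 CPM in Het and 134, 137 and 140 CPM in KO. Het library 1 was the lowest and Het libraries 2 and 3 the highest, with the 3 KO libraries within a narrow range between. Col4a2 (chromosome 8, 11312805 to 11449287), which starts within the same 22 bases, was at 47.3, 93.3 and 84.8 CPM in WT, 29.5, 95.4 and 99.7 CPM in Het and 88.6, 83.7 and 85.8 CPM in KO, and the FPKM ratio of Col4a1 to Col4a2 kept to 1.34 to 1.84. For Col4a1, KO against Het was 0.091 (95% interval -0.67 to 0.85), Het against WT 0.10 (95% interval -0.66 to 0.86) and KO against WT 0.19 (95% interval -0.57 to 0.95). The Col4a2 values were 0.20, -0.0044 and 0.20 in that order, and the sign of all 3 turned when single libraries were left out. Summed smooth muscle markers were lowest in the same Het library 1, and their part was not tested.

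The pair Col4a3 and Col4a4, the chains known from the kidney glomerulus, was low in Het. Col4a4 was at 7.32, 12.2 and 7.88 CPM in WT, 4.65, 6.48 and 3.59 CPM in Het and 10.8, 9.56 and 10.3 CPM in KO, so that all Het libraries lay below both other genotypes. Its difference was 1.05 (SE 0.33) in KO against Het and -0.90 (SE 0.33) in Het against WT, with edgeR adjusted p of 0.652 and 0.478. Col4a3 was at 2.62, 3.55 and 3.53 CPM in WT, 2.27, 1.47 and 1.49 CPM in Het and 3.02, 6.88 and 2.88 CPM in KO, again with no Het library inside the range of WT or KO. It differed by 1.29 (SE 0.51) in KO against Het and -0.89 in Het against WT. KO against WT was 0.16 for Col4a4 and 0.40 for Col4a3, the latter turning to -0.14 without KO library 2.

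Col4a5 and Col4a6 were the pair that came apart. Col4a5 (chromosome X, 141475385 to 141689234), the X-linked chain mutated in Alport syndrome, was at 31.4, 29.5 and 39.1 CPM in WT, 7.03, 26.9 and 28.4 CPM in Het and 44.9, 41.8 and 32.3 CPM in KO, with Het below WT and KO in every library. Col4a6 (ENSMUSG00000031273, chromosome X, 141165403 to 141474076), its divergent neighbour and partner chain in smooth muscle and epithelial basement membranes, was at 287, 172 and 163 CPM in WT, 99.5, 34.9 and 29.6 CPM in Het and 176, 136 and 65.2 CPM in KO. Het libraries lay below all WT libraries, KO values overlapped Het, and WT library 1 was the highest of all 9. The FPKM ratio of Col4a6 to Col4a5 was 7.70, 4.91 and 3.52 in WT, 11.9, 1.09 and 0.879 in Het and 3.31, 2.74 and 1.70 in KO, a 13.6-fold range. KO libraries were below WT libraries 1 to 3 in this ratio without overlap.

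Col4a6 had the largest fitted difference of the type IV chains. Het against WT was -1.92 (95% interval -3.19 to -0.66), with an edgeR p of 0.00788 before and 0.419 after adjustment. DESeq2 gave -1.89 with an adjusted p of 0.0199, limma voom with library quality weights -2.61 with 0.0318, and edgeR without Het library 1 -2.69 with 0.0406. The fit without Het library 1 called 258 of all 17542 genes tested in this comparison. KO against WT was -0.72 (SE 0.53) and KO against Het 1.20 (SE 0.54), opposite in sign, and neither passed (edgeR adjusted p 1 and 0.822). For Col4a5 the values were -0.68, 0.25 and 0.93 in the same order.

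**Figure D4:**
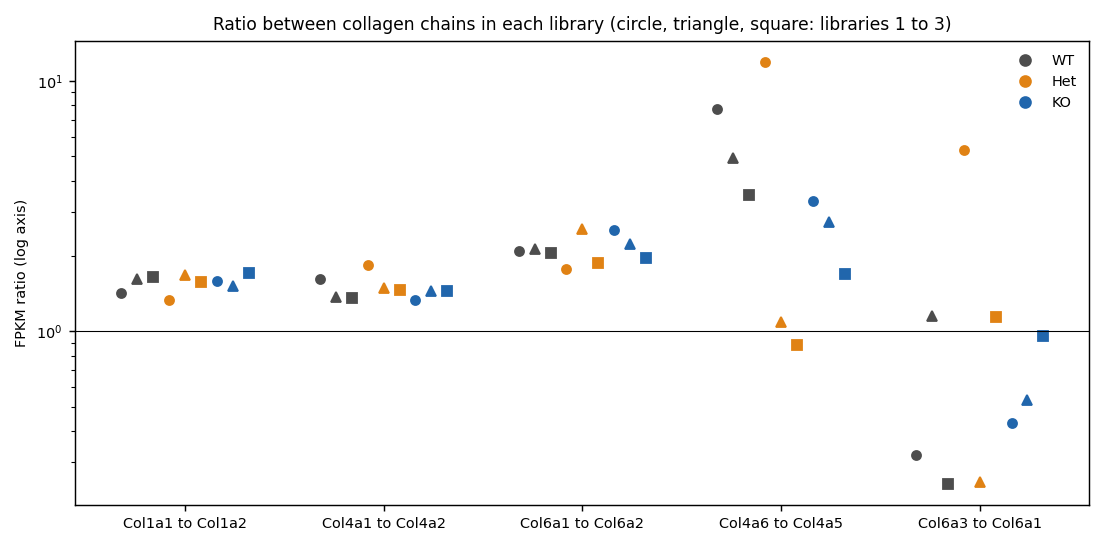
Ratio of FPKM between chains of 1 collagen type in each library, on a log axis, coloured by genotype and with circle, triangle and square for libraries 1, 2 and 3. The ratios of Col1a1 to Col1a2, Col4a1 to Col4a2 and Col6a1 to Col6a2 stay within 1.28-fold, 1.38-fold and 1.44-fold, while Col4a6 to Col4a5 and Col6a3 to Col6a1 span 13.6-fold and 21.5-fold.

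Type VI showed the same contrast between chains that ran in parallel and a chain that did not. Col6a1 and Col6a2 lie next to each other in the genome (chromosome 10, 76708792 to 76726168 and chromosome 10, 76595762 to 76623630) and encode chains that assemble with that of Col6a3. Col6a1 was at 46, 108 and 105 CPM in WT, 27.6, 97 and 59.9 CPM in Het and 135, 95 and 85.2 CPM in KO, and Col6a2 at 41.8, 95.9 and 96.8 CPM in WT, 29.5, 71.9 and 60.8 CPM in Het and 101, 80.7 and 82.2 CPM in KO. Het library 1 was lowest for both, and the KO libraries lay above Het without overlap for Col6a2 but not for Col6a1. KO against Het was 0.77 (SE 0.47) and 0.70 (SE 0.38), and the FPKM ratio between the chains was 1.78 to 2.56.

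Col6a3 (ENSMUSG00000048126, chromosome 1, 90765923 to 90843971) encodes the large chain that is classically required with the other chains for a secreted type VI molecule. It was at 40.2, 339 and 70.6 CPM in WT, 399, 66.1 and 187 CPM in Het and 159, 138 and 223 CPM in KO. Its highest library was Het library 1, where Col6a1 and Col6a2 were lowest, and its 3 lowest libraries, WT 1, Het 2 and WT 3, were the same that were low in Sbp. Relative to Col6a1 its FPKM ran from 0.246 in WT library 3 to 5.30 in Het library 1. The genotype differences were small against this spread, at -0.33 (SE 0.88) in KO against Het, 0.54 (SE 0.88) in Het against WT and 0.21 (SE 0.87) in KO against WT. Whether the Sbp difference had a part in this pattern was not tested.

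The remaining type VI chains were low. Col6a5, which encodes an alternative to that chain, was at 10.2, 9.19 and 4.98 CPM in WT, 8.05, 1.20 and 4.91 CPM in Het and 5.60, 5.18 and 2.72 CPM in KO, lowest in Het library 2, and differed by -0.85 (SE 0.62) in KO against WT. Col6a4 was at 0.994, 0.710 and 1.30 CPM in WT, 1.03, 1.42 and 0.276 CPM in Het and 2.25, 3.53 and 1.46 CPM in KO, and all 3 KO libraries exceeded every WT and Het library, by 1.27 (SE 0.78) against WT and 1.40 (SE 0.78) against Het (edgeR adjusted p 1 and 0.904). Col6a6 ran from 0 in WT library 3 and Het library 2 to 3.41 in KO library 2, and its groups overlapped.

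The multiplexins sit in basement membrane zones and release antiangiogenic fragments. Col15a1 was at 15, 29.5 and 33.1 CPM in WT, 7.73, 24.9 and 15.3 CPM in Het and 38.6, 33.4 and 33.8 CPM in KO, with each KO library above each Het library and, by little, above WT library 3. The differences were 1.14 (SE 0.41) from Het and 0.45 (SE 0.40) from WT, with edgeR adjusted p of 0.702 and 1. Col18a1, the source of endostatin, was at 60.5, 68.5 and 137 CPM in WT, 36.2, 118 and 112 CPM in Het and 82.5, 101 and 113 CPM in KO. It overlapped between all groups, with 0.15 in KO against Het.

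Col7a1, the only gene of the anchoring fibrils that fix epithelium to the stroma, was at 37.4, 42.7 and 47.5 CPM in WT, 49.3, 23.1 and 15.9 CPM in Het and 39.9, 47.3 and 42.6 CPM in KO. Het library 1 was the highest library and Het libraries 2 and 3 the lowest, so the edgeR values were -0.53 (SE 0.35) in Het against WT and 0.56 (SE 0.35) in KO against Het, neither past the threshold. Without Het library 1 the Het against WT value was -1.13 with an edgeR adjusted p of 0.0357, in a fit that called 258 of all 17542 genes tested. With library quality weights limma voom gave -1.23 (adjusted p 0.0283) in Het against WT and 1.34 (adjusted p 0.0403) in KO against Het. KO and WT overlapped, with a difference of 0.025 (95% interval -0.75 to 0.80).

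FACITs coat fibrils and link them to other matrix. Of the 6 tested, 5 were positive in KO against Het (52.0% of all genes) and 6 of 6 in KO against WT (50.6%). Col16a1, whose SE in KO against Het was the smallest of the 6, was at 32, 53.8 and 44.5 CPM in WT, 25.2, 35.9 and 28.8 CPM in Het and 57.4, 46.5 and 47.4 CPM in KO. Its KO libraries exceeded all Het libraries, with 0.75 (SE 0.22) in KO against Het and -0.54 (SE 0.22) in Het against WT, and edgeR adjusted p of 0.640 and 0.509. Over the 9 libraries it also had the pattern closest to the fibrillar genes among the tested members, with a Pearson r of 0.95 with the mean log2 CPM of the 9, as a description over libraries of 3 genotypes. That mean weighs the low Col11a1 and Col11a2 like the other fibrillar genes.

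Col14a1, which binds type I fibrils in dense connective tissue, was at 6.64, 11.4 and 5.91 CPM in WT, 7.19, 7.22 and 6.73 CPM in Het and 12.1, 16.3 and 8.21 CPM in KO, with KO above Het in every library and 0.79 (SE 0.35). Col12a1, its relative, was at 11.7, 33.4 and 17.4 CPM in WT, 16.6, 30.1 and 23.7 CPM in Het and 36.8, 21.2 and 24 CPM in KO and overlapped between groups (0.22). Col20a1 stood out in 1 sample, with 21.3 CPM in Het library 1 and 4.47 to 11.3 CPM in the other 8. Col9a2 ran from 0 in WT libraries 1 and 3 and Het library 3 to 6.09 CPM in KO library 2. It had 0, 29 and 0 reads in WT and 17, 107 and 9 in KO, most of them in single libraries, and its fitted difference in KO against WT was 2.50 (SE 1.94). Col9a3 stayed at or below 1.61 CPM in all libraries.

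Transmembrane collagens sit in the cell membrane. Col17a1, a hemidesmosome component of basal epithelial cells, was at 7.58, 15.1 and 16.6 CPM in WT, 2.86, 11.4 and 8.94 CPM in Het and 13.1, 25.1 and 23 CPM in KO, with KO above Het in every library and 1.39 (SE 0.50) (edgeR adjusted p 0.703). The basal epithelial markers Krt5, Krt14, Krt15 and Trp63 summed to 133 to 342 CPM in Het, 179 to 392 in WT and 349 to 576 in KO beside it, and their part in the difference was not tested. Col23a1 was at 14.1, 20.3 and 34.6 CPM in WT, 5.73, 40.4 and 56.6 CPM in Het and 35.5, 26.7 and 28.1 CPM in KO, lowest and highest within Het. Col13a1 stayed at or below 1.08 CPM, with KO libraries below WT without overlap (-1.04 (SE 1.21)).

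Short-chain and other members were expressed at a few CPM. Col8a1, a network collagen of vessel walls and other remodelled tissue, was at 1.41, 1.42 and 0.363 CPM in WT, 0.703, 1.79 and 2.54 CPM in Het and 2.91, 3.53 and 2.41 CPM in KO, and had the smallest unadjusted p of the collagens in KO against WT (1.46 (SE 0.73), edgeR p 0.0727, adjusted p 1). Its relative Col8a2 was at 1.52, 5.81 and 2.02 CPM in WT, 3.46, 1.47 and 0.773 CPM in Het and 3.30, 1.02 and 2.41 CPM in KO, with -0.48 in KO against WT. Col26a1 ran from 0 (Het library 1) to 13.7 CPM (KO library 3), with KO above both other genotypes. Col28a1 ran from 0 (Het library 1) to 4.80 CPM (Het library 3), and overlapped between groups.

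The other 7 members had too few reads to be tested, and all averaged below 0.5 CPM over the 9 libraries. Col19a1 had no read in any library, which allows up to 3 counts over a genotype's 3 libraries. Col2a1, the collagen of cartilage, had 5, 13 and 7 reads in WT libraries 1 to 3 and 0 in all Het and KO libraries, so WT was at least 8.16-fold higher than Het and at least 7.10-fold higher than KO against a floor of 3 counts over a group. Col24a1 had 10, 17 and 7 reads in WT, 0 in Het and 0, 6 and 7 in KO, at least 11.1-fold and 4.81-fold above Het. Such lower bounds allow for counting error in the group at 0 only. They take the mean of the other group as observed and leave out the spread between libraries. Copies of 1 molecule were not told apart.

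Reads of 2 members came from KO libraries alone. Col22a1, a collagen of muscle and tendon junctions, had 0, 18 and 9 reads there, at least 10.04-fold above WT and 10.2-fold above Het, and Col9a1 had 10, 3 and 2, at least 5.54-fold and 5.60-fold. Summed skeletal muscle markers (10 genes) came to 5149 CPM in KO library 2 and to 144 to 1277 CPM in the other 8, and their part was not tested. Col25a1 had 0 to 21 reads in single libraries of all genotypes, and Col10a1 had 7 reads in Het library 1 and 1 in WT library 2. A group at 0 was common at this depth: of the 3854 genes that averaged 0.1 to 0.5 CPM, 24.1% were at 0 in all Het libraries, 9.89% in all WT and 5.79% in all KO libraries.

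Genes of collagen biosynthesis, assembly and turnover were read from 7 lists, which were chosen with earlier results of these data known. Of their tested members 0 passed edgeR in any comparison, as for 0% of all genes. The counts below are to be read beside the shares of all genes, which in KO against Het were 52.0% positive, 4.42% higher at an unadjusted p under 0.05 and 7.80% with all KO libraries above. Enzymes and chaperones that modify and fold the chains (19 tested) had 15 positive members in KO against Het (median 0.30), 2 of them at an unadjusted p under 0.05. In Het against WT 14 were negative (50.0% of all genes), 4 at that threshold (5.61% of all genes), and 1 was higher at it (3.43%). P3h4, a partner of lysyl hydroxylation, was at 28, 25.7 and 24.7 CPM in WT, 41.3, 38.7 and 43.2 CPM in Het and 44.5, 31.5 and 34.6 CPM in KO, with all WT libraries lowest. P4ha2, a prolyl 4-hydroxylase subunit, was at 32.8, 25.7 and 32.9 CPM in WT, 19.4, 13.4 and 20.9 CPM in Het and 27, 23.7 and 15.2 CPM in KO, with Het below WT throughout (-0.77 (SE 0.26)). Mia3, which loads procollagen for export, differed by -0.29 (SE 0.13) in KO against WT.

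Enzymes that trim propeptides and cross-link fibrils (12 tested of 14) had 11 positive members in KO against Het (median 0.68), 2 at an unadjusted p under 0.05. Adamts2, which removes the amino propeptide of types I to III, was at 7.27, 13.8 and 10.3 CPM in WT, 6.11, 12.5 and 9.88 CPM in Het and 21.8, 18.4 and 12.2 CPM in KO and differed by 0.88 (SE 0.36) in KO against Het. Bmp1, which removes the carboxy propeptide, was at 16, 25.3 and 14.4 CPM in WT, 19.1, 14.2 and 9.33 CPM in Het and 28.4, 24.1 and 19.1 CPM in KO (0.74 (SE 0.32)). Adamts14, a relative of Adamts2, was higher in all KO than in all WT libraries, by 1.17 (SE 0.69).

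Fibril-associated proteins (14 tested) had 11 positive members in KO against Het (median 0.67), with 6 at an unadjusted p under 0.05 and 7 without overlap. Fbln1, a matrix glycoprotein, was at 19.5, 36.3 and 33.5 CPM in WT, 17.3, 33 and 24.9 CPM in Het and 69.2, 44.8 and 36.9 CPM in KO, with KO above Het and above WT in every library (0.76 (SE 0.33) for the latter). Dcn, the fibril-binding proteoglycan decorin, was at 120, 215 and 148 CPM in WT, 129, 111 and 110 CPM in Het and 239, 213 and 162 CPM in KO, with 0.81 (SE 0.22) in KO against Het. Bgn, its relative biglycan, overlapped between groups at 0.63.

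Basement membrane partners (laminins, nidogens, perlecan and others, 15 tested) had 13 positive members in KO against Het (median 0.47), 2 at an unadjusted p under 0.05, and 13 positive in KO against WT (median 0.21; 50.6% of all genes were positive). For 6 of them all KO libraries exceeded WT, as for 8.14% of all genes. Lama2, the laminin chain of muscle and nerve, was at 3.97, 9.32 and 6.38 CPM in WT, 5.57, 8.14 and 7.84 CPM in Het and 12.9, 11.3 and 9.68 CPM in KO, and differed by 0.78 (SE 0.35) in KO against WT. Lamc3 differed by 0.61 in that comparison.

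Proteases of collagen and their inhibitors (13 tested of 15) held the gene with the largest fitted difference of the 7 lists in KO against Het. Timp1, an inhibitor of matrix metalloproteinases, was at 2.51, 5.55 and 4.77 CPM in WT, 1.46, 4.14 and 2.10 CPM in Het and 13.8, 8.53 and 24.1 CPM in KO. All KO libraries exceeded all others, by 2.59 (95% interval 1.38 to 3.79) against Het and 1.85 (95% interval 0.68 to 3.02) against WT, and neither passed edgeR after adjustment (0.611 and 1). Mmp2, a gelatinase of stromal cells, was at 14.6, 23.7 and 26.6 CPM in WT, 20.9, 14.7 and 7.06 CPM in Het and 40.5, 38 and 26.8 CPM in KO, with 1.30 (SE 0.38) in KO against Het. Timp2 was at 109, 198 and 155 CPM in WT, 191, 140 and 194 CPM in Het and 241, 233 and 185 CPM in KO, with 0.51 (SE 0.23) in KO against WT. In the list as a whole, 12 members were positive in KO against Het (median 0.55).

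Collagen receptors and the TGF-beta route gave smaller medians. Of 8 tested receptors 4 were positive in KO against Het (median 0.17). Lair1, an inhibitory collagen receptor of immune cells, was at or below 2.70 CPM in all libraries and lowest in WT, and Ddr1 and Ddr2, receptor kinases for collagen, differed by 0.20 and 0.47 in KO against WT. Of 13 TGF-beta ligands, receptors and targets, 8 were positive in KO against Het (median 0.053), against the 0.018 over all genes. Tgfbr1, a receptor, differed by -0.39 (SE 0.23) in KO against WT, and the latent binding proteins Ltbp1 and Ltbp2 by 0.62 and 1.10.

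Genes outside the family with the most similar pattern were taken by the Pearson r of log2 CPM over the 9 libraries, a description of likeness in libraries of 3 genotypes. Closest to the mean of the 9 tested fibrillar genes were Isl2 (r = 0.98), Acvrl1 (0.97), Wfdc18 (0.97), Fxyd5 (0.96), Penk (0.96), Eid2 (0.95), Gimap5 (0.95), Efemp1 (0.95), Steap3 (0.95) and Il21r (0.95). Isl2, Wfdc18, Gimap5 and Il21r stayed at or below 1.59 CPM, so a few reads set their pattern, whereas Penk was at 23.5, 40.2 and 40.1 CPM in WT, 16.8, 30.8 and 15.1 CPM in Het and 53.2, 38.7 and 31.3 CPM in KO and Efemp1, a fibulin of the matrix, at 16.9, 25.4 and 27.6 CPM in WT, 7.13, 23.5 and 8.94 CPM in Het and 35.1, 32.2 and 22.1 CPM in KO. Both were lowest in Het libraries 1 and 3 and highest in KO library 1. The fibrillar mean weighs each gene alike, so the low Col11a1 and Col11a2 shape it too. In Het library 3, where that mean was lowest, Col11a1 had 5 reads and Col11a2 had 0.

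Closest to Col4a1 were Cavin2 (r = 0.98), Ctxn1 (0.97), Smoc2 (0.97), Flna (0.97), Icam1 (0.97), Pgm5 (0.97), Ehd2 (0.97), Arhgef26 (0.97), Ptprs (0.97) and Phlda3 (0.97). Flna, the actin cross-linker filamin A, was at 560, 976 and 993 CPM in WT, 284, 1214 and 1125 CPM in Het and 1042, 848 and 869 CPM in KO, and Smoc2, a calcium-binding protein of the basement membrane, at 74, 141 and 151 CPM in WT, 39, 169 and 169 CPM in Het and 151, 124 and 122 CPM in KO. Like Col4a1, both were lowest in Het library 1 and highest in Het libraries 2 and 3.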

How the data were processed

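The authors deposited raw read counts per gene for the 9 libraries, whole numbers with no normalisation, beside FPKM values per library, that is, counts scaled by gene length and library size. Their table of mean FPKM per genotype was not used. RNA was extracted with a Qiagen kit and polyA-selected, per the labels' protocols. Coordinates are on GRCm38 (mm10), named in the submitters' processing notes. Aligner, counter and use of strand are not stated there, so reads of overlapping genes, such as the starts of Col4a1 and Col4a2, cannot be told apart. Each library's genotype comes from its name in the labels. Library numbers follow accession order and pair nothing. No 2 libraries were near duplicates (lowest chi-square per degree of freedom 32.7 over 36 pairs).

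Counts were tested with edgeR 4.0.16 (R 4.3.3; TMM, filterByExpr, robust quasi-likelihood, 1 model of all 9 libraries with genotype as the only factor). Benjamini-Hochberg adjustment ran over the 16836 genes tested, with calls at 0.05. CPM use TMM-scaled totals, and errors are SE, SD or 95% intervals. Total counts of 16233392 to 24017791 per library set the precision. The edgeR code was run on simulated counts, with set changes larger than most collagen differences here. That run does not show which of these differences could be detected. Chain ratios and levels between genes use FPKM, differences between genotypes use counts. Alternatives were DESeq2 size factors or upper quartile scaling in edgeR, DESeq2 1.42.0, limma 3.58.1 voom with and without library quality weights, a fit of the compared genotypes alone, dropping the filter or asking 1 CPM in 3 libraries, each library left out, and the 3 libraries low in Sbp left out. The last was chosen after seeing the data. Unadjusted p-values count features only and make no call.

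The members, classes, pathway lists and marker lists were chosen with earlier results of these data known. Named are all tested fibrillar and type IV genes, other members averaging at least 1 CPM, the 5 smallest p in each direction and comparison, up to 3 genes per pathway list by p in KO against WT, and the 10 genes most like the fibrillar mean and Col4a1. Some genes that these rules name are not reported here. Promoter sequences are from RefSeq (GRCm38.p6), which held windows for 35 of the 44 genes.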

Additional observations from a re-analysis of the deposited data

How the results depend on the processing

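No collagen gene was called in KO against WT under any of the 18 alternative fits. In Het against WT the number called was 0 in edgeR, 1 in DESeq2 and 2 in limma voom with library quality weights, and 0 to 2 over fits leaving out each library. The 2 of the leave-out fits came without Het library 1. That fit called 258 of all 17542 genes tested, against 0 of 16836 in the main fit. In KO against Het it was 1 in DESeq2, 2 in limma voom with library quality weights and 0 in the others. The median log2 fold change kept its sign throughout. It ran, with each library left out, from 0.13 to 0.59 in KO against WT, from -0.61 to -0.15 in Het against WT and from 0.63 to 0.94 in KO against Het. Without the 3 libraries low in Sbp, where the lone WT library is assumed to vary like the other groups, it was 0.021, -0.89 and 1.09, and KO against WT turned for Col3a1 (-0.018), Col4a1 (-0.069), Col4a2 (-0.12), Col5a2 (-0.41) and Col4a4 (-0.26), and Het against WT for Col4a1 (-0.35) and Col6a3 (-0.22). With quality weights Col11a2 turned to 0.16 in KO against WT, Col4a2 to 0.31 and Col9a2 to -1.25 in Het against WT, and Col4a1 to -0.16, Col4a2 to -0.10, Col13a1 to 0.90, Col20a1 to 0.90 and Col6a5 to 0.071 in KO against Het. With plain voom Col28a1 turned to -0.27 in Het against WT, and Col13a1 to 0.00764, Col23a1 to 0.32, Col20a1 to 0.28 and Col6a5 to 0.32 in KO against Het. Col4a2 in Het against WT was 0.022 with DESeq2 size factors in edgeR, 0.046 with the 1 CPM filter and 0.022 in DESeq2. Over fits leaving out each library, values crossed 0 in KO against WT for Col4a2 (-0.049 to 0.42), Col5a2 (-0.0055 to 1.03), Col4a3 (-0.14 to 0.61), Col11a2 (-0.58 to 0.16) and Col8a2 (-0.86 to 0.38). They did so in Het against WT for Col4a1 (-0.12 to 0.43), Col4a2 (-0.27 to 0.37), Col27a1 (-0.32 to 0.16), Col28a1 (-0.080 to 1.99) and Col6a3 (-0.25 to 2.02), and in KO against Het for Col4a1 (-0.24 to 0.31), Col4a2 (-0.18 to 0.46), Col11a1 (-0.084 to 1.21), Col11a2 (-0.087 to 2.68), Col13a1 (-0.99 to 0.73), Col6a3 (-0.78 to 0.46), Col23a1 (-0.68 to 0.39), Col20a1 (-0.45 to 0.96) and Col6a5 (-0.54 to 0.57). The cause was not tested. Col11a1 and Col13a1 were not tested under the 1 CPM filter, nor in KO against Het with the compared genotypes alone. No paired analysis was possible because the labels carry no replicate numbers. With 3 libraries per genotype, intervals of most collagen genes include differences of either sign, and members under 1 CPM rest on few reads.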

Other observations

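The chains that departed from their partners, Col6a3 and Col4a6, were set against all other genes in the same way as Col4a1, a choice made after their values were seen. Among the genes closest to Col6a3 over the 9 libraries were Abhd17c (r = 0.97), BC064078 (0.97), Ranbp17 (0.97), B230323A14Rik (0.97), Gipc2 (0.97), Eid1 (0.96), Parp8 (0.95), Mesp2 (0.95) and Krtap17-1 (0.95).

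Among those closest to Col4a6 were Mrap2 (r = 0.99), Ms4a5 (0.99), Pbsn (0.99), Hmgn2 (0.98), 2010300C02Rik (0.98), Tcaf3 (0.98), Bex3 (0.98), Prodh (0.98) and Rps6ka2 (0.98). Pbsn, the androgen-regulated secretory gene probasin, was at 13056, 10907 and 8323 CPM in WT, 6299, 2508 and 2697 CPM in Het and 10613, 6823 and 4416 CPM in KO. Tcaf3 was at 1919, 804 and 564 CPM in WT, 460, 66.8 and 33 CPM in Het and 1022, 527 and 241 CPM in KO. As with Col4a6, Pbsn and Tcaf3 were highest in WT library 1 and lowest in Het libraries 2 and 3. These coefficients describe likeness across 9 libraries of 3 genotypes that also differ in secretory genes, and carry no test.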
